A study of Mus musculus with 18 samples.

Results

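The subject here is the late switch of cultured mouse hepatocytes, the difference between 24 h and 12 h after stimulation, described over 18193 genes. Its members were 4 of the 18 arrays of the series, chosen by stimulus and time: IL-6 plus HGF at 24 h and control at 24 h, set against IL-6 plus HGF at 12 h and control at 12 h. Each array was paired with the earlier one of its own stimulus, and the late difference of a gene is the mean of these 2 paired differences. The cells were primary hepatocytes of male C57BL/6N mice aged 8 to 12 weeks, from 1 animal or a pool of up to 3, plated below confluence on collagen I. All these dishes had been kept in serum-free medium with dexamethasone, a synthetic glucocorticoid, for 24 h and then in starvation medium without it for 4 h. Treated dishes received IL-6 at 40 ng/ml from 0 h and HGF at 40 ng/ml from 4 h, and control dishes received neither. RNA was measured on Affymetrix arrays, and values are log2 signals, so that a difference of 1 is a doubling of signal. Each stimulus and time had 1 array. Separate animals behind the dishes are not stated, so the p-values reflect variation among these dishes and hours alone, which may be technical.

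IL-6 is the main cytokine of the hepatic acute-phase response and acts through STAT3, and HGF acts through the receptor tyrosine kinase Met as a growth factor for hepatocytes. Hepatocytes are quiescent in the adult liver and re-enter the cell cycle when liver mass is lost or when they are isolated and plated. Genes of G1 progression and DNA replication are controlled by E2F factors and peak around S phase. Genes of G2 and mitosis are held down in quiescent cells by the DREAM complex, which binds the CHR element, and are raised later by B-Myb and FoxM1.

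At 24 h the dishes of both stimuli had more transcripts of the cell division machinery and fewer transcripts of liver enzymes and plasma proteins than at 12 h. Of the 12 largest rises 5 were members of the list of G2 and mitosis genes, among them Ccnb2, cyclin B2, at 5.22-fold higher. Of the 12 largest falls 3 were members of the cytochrome P450 list and 2 of the list of conjugating enzymes, among them Cyp3a11, the main drug-oxidising P450 of mouse liver, at 8.38-fold lower, and Rdh7, a retinol dehydrogenase, at 9.24-fold lower. Limma, fitted over the 6 arrays at 8, 12 and 24 h with stimulus as a block, called 1087 genes higher at 24 h, which is 5.97% of those tested. It called 524 genes lower, or 2.88%. Members of lists that are named below to show a range or a role were picked after their values were seen. The threshold was a Benjamini-Hochberg adjusted p under 0.05, and 5154 genes had an unadjusted p under 0.05. The share of calls that were higher was 67.5% on the deposited scale, 61.6% after quantile normalization and 54.3% with arrays centred on their medians, and the median late difference of all genes was -0.055, -0.029 and -0.091 on these 3 scales. No stimulus block in the fit left 209 genes higher and 41 lower, and leaving out 1 array at a time left 364 to 904 higher and 120 to 380 lower.

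Over all genes tested, 71.6% had differences of the same sign in both pairs. All 1611 called genes did, which the call itself largely fixes. The fit counts disagreement between the 2 stimuli as spread, so genes whose pairs move alike pass more easily. A difference of at least 1 upward in each pair was found in 185 genes, or 1.02%, and of at least 1 downward in each in 70 genes, or 0.385%. A difference of at least 1 upward in 1 pair and at least 1 downward in the other was found in 0 genes. Across genes, which are not independent replicates, the differences of the 2 pairs had a Pearson r of 0.711, and their SD was 0.360 with IL-6 plus HGF and 0.371 in control. The 4 arrays share no library, though each pair ends at the same hour. At 24 h 3390 of all genes lay, in each stimulus, above every array of 8 to 12 h of that stimulus, and 4352 lay below every such array. These are counts of values without a test, and some genes would lie there by chance. The gap between the stimuli was about as wide at 24 h as at 12 h: its SD over genes was 0.332 at 24 h and 0.334 at 12 h, and 330 genes at 24 h and 327 at 12 h had a gap of at least 1.

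**Figure D1:**
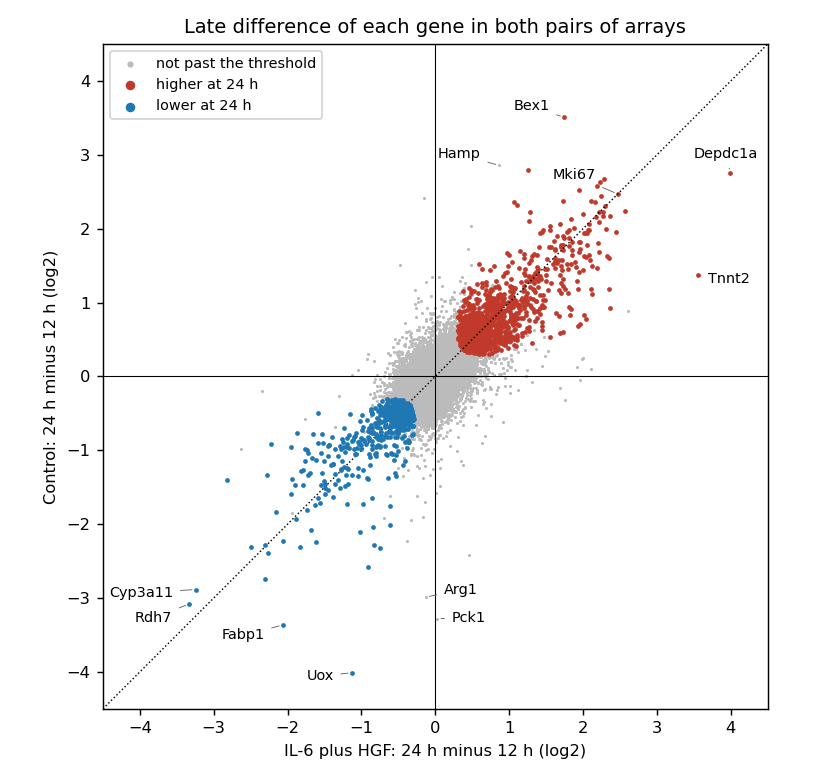
Each point is 1 of 18193 genes, with its log2 difference between 24 h and 12 h with IL-6 plus HGF on the x axis and in control on the y axis. The 1087 genes called higher (red) and the 524 called lower (blue) lie along the dotted line of equal change. The call largely fixes this, since the fit counts disagreement between the stimuli as spread. Pck1 and Arg1 lie far below the line because their difference is mainly in control.

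Genes of G2 and mitosis were the only 1 of the 48 lists in which every measured member was called. All 35 were called higher at 24 h, with a median late difference of 1.84, against a median of -0.055 and 5.97% called higher over all genes. The median was 1.81 with IL-6 plus HGF and 1.87 in control. The count was 33 to 35 with 1 array left out and 31 with no stimulus block. Members ranged from 0.46 for Foxm1, a transcription factor of this gene set, to 2.48 for Cenpe, a kinesin that attaches chromosomes to the spindle.

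The regulators of mitotic entry showed the size of the shift. Ccnb2 encodes cyclin B2, an activator of the mitotic kinase Cdk1. The signal of Ccnb2 was 9.74 with IL-6 plus HGF and 10.33 in control at 24 h, against 7.55 with IL-6 plus HGF and 7.76 in control at 12 h. It was 5.22-fold higher at 24 h (late difference 2.38 ± 0.11, SE, limma adjusted p = 0.000408). Mki67, whose protein coats mitotic chromosomes and marks cycling cells, stood at 9.63 with IL-6 plus HGF and 10.16 in control at 24 h, against 7.16 and 7.69 at 12 h. Both pairs gave the same difference of 2.47, and the control was the higher of the 2 dishes at each time. The kinase genes followed with 2.27 for Ttk, 2.30 for Bub1, 2.03 for Plk1, 1.73 for Aurka and 1.59 for Cdk1 itself. Ttk and Bub1 act in the spindle checkpoint, Plk1 and Aurka in spindle assembly. The other probe set of Bub1 rose by only 0.30. The activators of the anaphase-promoting complex system, Cdc20 and its E2 enzyme Ube2c, were higher by 1.98 and 1.98. Motor and midbody genes included Kif23 (2.15), Kif20a (1.90), Prc1 (1.58), Ect2 (2.00) and Anln (1.98), all of which act in cytokinesis. The Cdc25 phosphatases were among the smallest rises, at 0.71 for Cdc25b and 0.92 for Cdc25c. Among kinesin genes as a whole, a family picked after the values were seen, 10 of 37 were called higher and 0 lower, with a median of 0.10.

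The mean of the mitosis list was already climbing before 12 h, without and with stimulus. Relative to the control at 0 h it was 0.37, 1.02, 1.48 and 3.27 in control at 4, 8, 12 and 24 h. Under IL-6 plus HGF it was 0.72, 1.01, 0.67, 1.32 and 3.09 at 8, 9, 10, 12 and 24 h. The step after 12 h was thus larger than that over the 12 h before it in each stimulus.

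**Figure D2:**
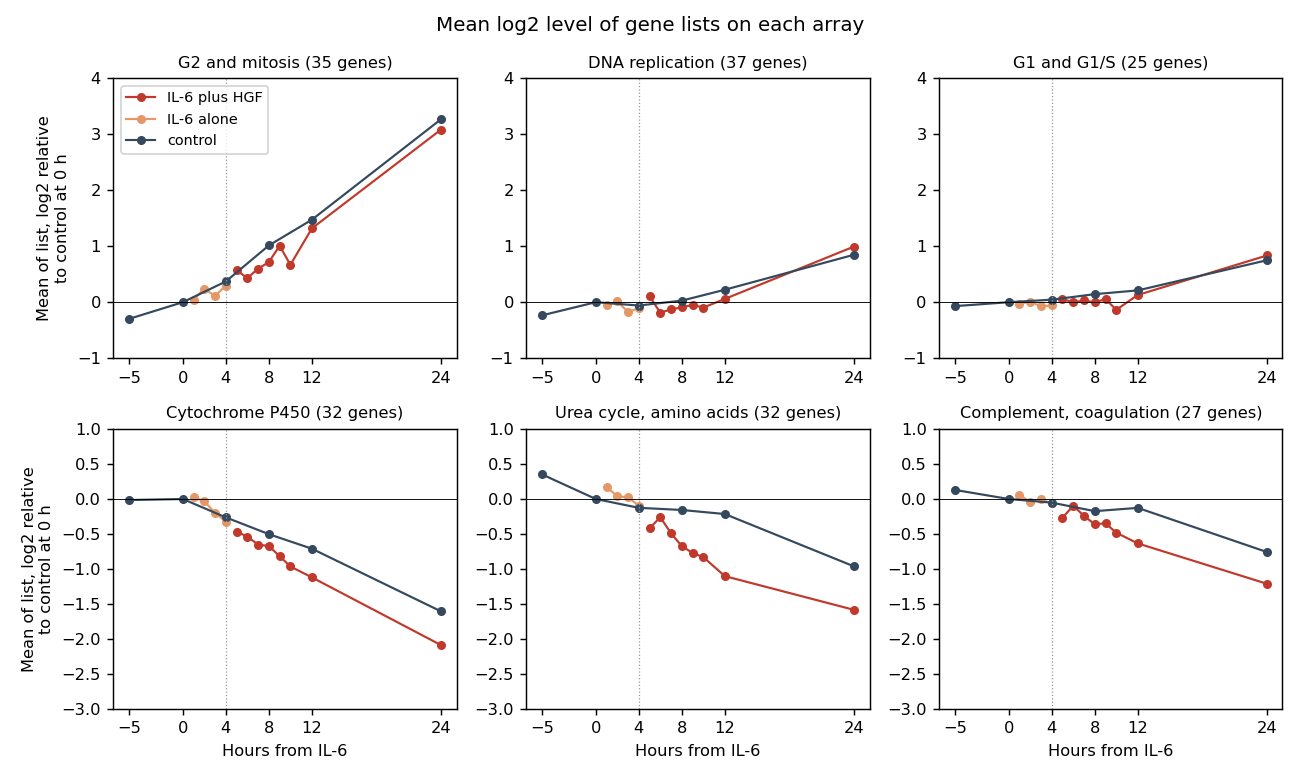
The mean log2 level of 6 gene lists on each of the 18 arrays, relative to the control at 0 h, is plotted against hours from IL-6, with the dotted line at 4 h marking the addition of HGF. The mitosis list reaches 3.09 with IL-6 plus HGF and 3.27 in control at 24 h, and the replication and G1 lists stay near 0 up to 12 h and stand above it at 24 h, while the 3 lower panels fall.

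The promoters of the mitosis list shared the CHR element, TTTGAA, which is printed here because these genes moved together. Promoters were the RefSeq windows of the GRCm38.p6 build, 250 bases before to 50 after each start, and both strands were searched. Of 36 symbols of the list, 29 had a promoter in the table, with 31 promoters in all. The CHR letters stood in 24 of these 31 promoters (77.4%), against 5878 of all 32851 (17.9%) and 18.3% of the promoters of genes called higher. Within 50 bases of the start they stood in 71% of the mitosis promoters and in 4.94% of all. CCAAT, the box bound by NF-Y, stood in 77.4% of the mitosis promoters and in 37.4% of all. It was not particular to this list. Its share was 84.2% in the cholesterol synthesis list and 83.3% in the list of clock repressors and outputs, and as low as 11.1% among positive acute-phase proteins. The CHR letters and CCAAT were chosen after the values were seen, and the genes of the list that hold the CHR letters (22, median late difference 1.91) and those that do not (7, median 2.00) had like sizes. The following stretches run from 90 bases before to 30 after the start, 5′ to 3′ on the gene's own strand, with TTTGAA and CCAAT or their complements in capitals.
Ccnb2: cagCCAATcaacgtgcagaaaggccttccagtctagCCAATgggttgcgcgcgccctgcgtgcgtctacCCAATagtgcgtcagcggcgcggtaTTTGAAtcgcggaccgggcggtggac
Cdk1: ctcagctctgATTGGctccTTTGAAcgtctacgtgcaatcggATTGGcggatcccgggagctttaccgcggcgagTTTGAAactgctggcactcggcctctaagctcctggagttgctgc
Ube2c: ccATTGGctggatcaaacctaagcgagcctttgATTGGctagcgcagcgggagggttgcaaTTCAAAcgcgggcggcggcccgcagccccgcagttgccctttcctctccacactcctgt
Cdc20: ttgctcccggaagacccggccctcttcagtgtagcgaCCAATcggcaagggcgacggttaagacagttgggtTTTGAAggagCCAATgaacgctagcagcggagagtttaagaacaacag
Cenpf: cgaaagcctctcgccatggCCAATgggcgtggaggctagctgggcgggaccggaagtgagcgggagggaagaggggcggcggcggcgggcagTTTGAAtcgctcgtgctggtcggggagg
Kif23: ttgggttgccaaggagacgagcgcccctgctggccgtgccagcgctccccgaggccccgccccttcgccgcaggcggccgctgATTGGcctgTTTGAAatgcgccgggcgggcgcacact
They lie at chr9:70421525-70421644 (minus strand), chr10:69352883-69353002 (minus), chr2:164769839-164769958 (plus), chr4:118437314-118437433 (minus), chr1:189688057-189688176 (minus) and chr9:61946770-61946889 (minus). In Cenpf and Kif23 the CHR letters begin at base 3 after the start, in Ccnb2 at base 5, in Cdc20 18 bases before it, and in Ube2c they lie on the opposite strand. The motifs were counted separately, so that places where they overlap count for each. A match of letters is a description of the window and not a site shown to be bound.

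Genes of DNA replication rose less than those of mitosis, as read from the medians of the 2 lists. Of 37 measured members 30 were called higher and 0 lower, with a median of 0.78; the medians of the pairs were 0.86 with IL-6 plus HGF and 0.63 in control. The count was 15 to 28 with 1 array left out and 11 with no stimulus block. Tk1, thymidine kinase of the salvage pathway, was highest at 1.84 ± 0.15 (limma adjusted p = 0.00141). Tk1 measured 8.89 at 24 h against 6.80 at 12 h with IL-6 plus HGF, and 9.51 at 24 h against 7.93 at 12 h in control. Rrm2, the regulated subunit of ribonucleotide reductase, reached 12.06 and 11.71 at 24 h, against 10.11 and 10.30 at 12 h, in the same order of stimuli. The origin-licensing genes rose by 1.34 (Cdc6) and by 0.48 to 0.88 in the 6 subunits of the Mcm2 to Mcm7 helicase. Pcna, the sliding clamp, rose by 0.53. The licensing factor Cdt1 (0.47), thymidylate synthase Tyms (0.13) and the origin subunit Orc1 (-0.26) did not pass. Tyms differed by 0.69 with IL-6 plus HGF and by -0.43 in control.

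The 2 forms of the E2F element searched in these promoters, TTTCCCGC and TTTGGCGC, were also picked after the values were seen. They stood in 17.1% and 14.3% of the 35 replication promoters, against 1.07% and 0.514% of all promoters, and in 0 of the mitosis promoters. The CHR letters stood in 11.4% of the replication promoters. The Mcm6 promoter is shown because it holds TTTGGCGC at 2 places, in capitals, over the stretch from 150 to 31 bases before the start (chr1:128359736-128359855, minus strand).
Mcm6: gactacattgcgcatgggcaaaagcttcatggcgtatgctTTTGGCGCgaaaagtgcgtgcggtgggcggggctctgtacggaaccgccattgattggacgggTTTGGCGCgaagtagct

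In the list of G1 and G1/S regulators 11 of 25 members were called higher and 0 lower, with a median of 0.53. Without 1 array 6 to 13 were higher, and with no stimulus block 4 were. Ccnd1 encodes cyclin D1, the cyclin that HGF and other mitogens raise in hepatocytes. At 24 h Ccnd1 stood at 9.29 with IL-6 plus HGF and 9.81 in control, against 7.95 and 8.16 at 12 h. It rose by 1.49 ± 0.12 (limma adjusted p = 0.0011), and the control dish was the higher one at both times. Ccne2, cyclin E2, rose by 2.01 with IL-6 plus HGF and 0.83 in control. The repressor E2fs, which shut S-phase genes off again, rose by 1.65 (E2f7) and 1.25 (E2f8), and the activator E2f1 differed by 0.49 without passing. Cell cycle inhibitors were among the genes that rose: Cdkn2c by 1.13, Cdkn2d by 0.82 and Cdkn1b by 0.72. Cdkn1a, the p53-responsive inhibitor p21, did not pass (-0.07). Of the 21 p53 target and checkpoint genes 3 were called higher, led by Pmaip1, a BH3-only death gene, at 2.04 with IL-6 plus HGF and 0.78 in control. Over all genes 5.97% were called higher, and with no stimulus block 0 of these 21 were.

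**Figure D3:**
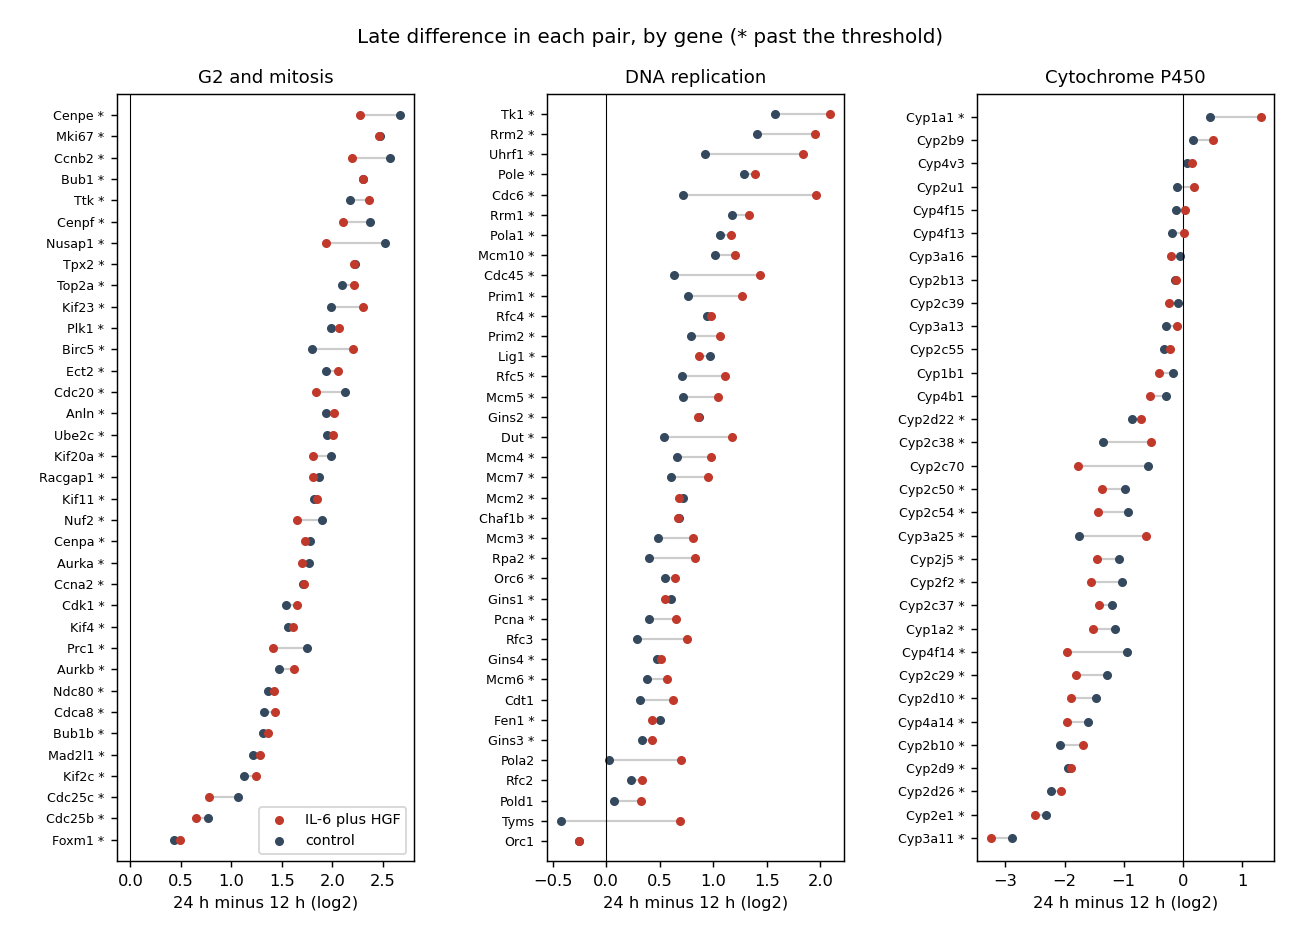
Late differences of single genes (log2, 24 h minus 12 h) with IL-6 plus HGF (red) and in control (dark) are shown for the mitosis, replication and cytochrome P450 lists, with an asterisk on genes past the threshold. The 35 mitosis genes are to the right of 0 in both pairs, 30 of 37 replication genes passed upward and 18 of 32 P450 genes downward.

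Cytochrome P450 genes, which encode the haem enzymes that oxidise drugs, steroids and fatty acids, were lower at 24 h. Of 32 measured members of families 1 to 4, 18 were called lower and 1 higher, with a median of -1.18, against 2.88% called lower over all genes. With 1 array left out 13 to 17 were lower, and with no stimulus block 7 were. Among all 42 genes of P450 family 2, a wider group picked after the values were seen, 17 were called lower and 1 higher, with a median of -0.30. Cyp2e1, the ethanol-oxidising enzyme of the hepatocytes around the central vein, fell to 8.31 with IL-6 plus HGF and 8.67 in control at 24 h, against 10.80 and 10.98 at 12 h. Its late difference was -2.40 ± 0.10 (limma adjusted p = 0.000408). The signal of Cyp3a11 was 8.47 with IL-6 plus HGF and 9.91 in control at 24 h, against 11.72 with IL-6 plus HGF and 12.79 in control at 12 h. Cyp3a11 thus differed by -3.25 with IL-6 plus HGF and -2.89 in control. The steroid-metabolising Cyp2d genes fell by 0.78 to 2.15. Cyp2b10, the target of the receptor CAR, fell by 1.88, and Cyp1a2, a constitutive liver form, fell by 1.33. Cyp1a1, the inducible target of the aryl hydrocarbon receptor, was the exception, with a rise of 1.31 with IL-6 plus HGF and 0.45 in control.

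Other enzymes of detoxification were divided. Of 44 conjugating, alcohol and aldo-keto enzymes, 10 were called lower and 2 higher, with a median of -0.15. Without 1 array 5 to 11 were lower, and with no stimulus block 0 were. Rdh7 measured 6.10 at 24 h against 9.44 at 12 h with IL-6 plus HGF, and 8.15 at 24 h against 11.23 at 12 h in control. Sult1a1, a phenol sulfotransferase, fell by 2.81 with IL-6 plus HGF and 1.40 in control. Adh1, the main alcohol dehydrogenase, stood at 7.42 and 11.27 at 24 h, against 9.35 and 13.11 at 12 h, and did not pass (late difference -1.89, limma adjusted p = 0.0501). Akr1c14, an aldo-keto reductase of steroids, went the other way by 1.67 ± 0.12 (adjusted p = 0.000726). At 24 h Akr1c14 stood at 8.10 with IL-6 plus HGF and 11.02 in control, against 6.48 and 9.30 at 12 h. It rose in both stimuli although the treated dishes stayed far below the controls at both times. Akr1c13 was the other gene called higher (0.56).

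Enzymes of amino acid and nitrogen metabolism followed the P450 genes. Of 32 members 14 were called lower and 2 higher, with a median of -0.44. Without 1 array 5 to 11 were lower, and with no stimulus block 1 was. Cps1, which makes carbamoyl phosphate for the urea cycle, stood at 6.28 and 7.81 at 24 h, against 7.90 and 10.05 at 12 h, for IL-6 plus HGF and control in that order. It fell by 1.93 ± 0.28 (limma adjusted p = 0.011). Gnmt, the methyltransferase that disposes of excess methyl groups, fell by 2.29, Hpd, of tyrosine breakdown, by 1.75, Bhmt, of homocysteine remethylation, by 1.63, and Otc, the next urea cycle enzyme, by 1.21. The urea cycle genes further along, Ass1 and Asl, differed by -0.48, which passed, and -0.28, which did not. Kynu, of tryptophan breakdown, and the transaminase Gpt2 were higher by 0.50 and 0.62. Uox, urate oxidase, fell by 1.14 with IL-6 plus HGF and 4.01 in control. Lipid handling was less uniform: of 30 genes of fatty acid oxidation and PPAR-alpha targets 6 were called lower and 3 higher. Fabp1, the fatty acid binding protein of liver cytosol, fell by 2.72, whereas Cpt1a, the gate of mitochondrial oxidation, rose by 0.53 and the thioesterase Acot1 by 1.17. Of 20 cholesterol synthesis genes 2 were called lower (Tm7sf2 -0.80, Pmvk -0.40) and 0 higher, with a median of -0.36 and 17 negative in both pairs. Of all 18193 genes 7916 were negative in both pairs.

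Many plasma protein genes fell, while albumin did not pass the test. Of 27 complement and coagulation factors 14 were called lower and 1 higher (Pros1, protein S, 0.52), with a median of -0.61; with no stimulus block 2 were lower. The signal of Plg was 9.63 with IL-6 plus HGF and 10.07 in control at 24 h, against 10.94 with IL-6 plus HGF and 11.47 in control at 12 h. Plg, the plasmin precursor, thereby fell by 1.36 ± 0.11 (limma adjusted p = 0.00115), with C8a at -1.64 and F10, the factor X gene, at -1.54. Masp1, a protease of the lectin pathway, was called lower (-1.62), though its 4 other probe sets did not share the direction and their mean with it gave 0.13. Of 33 positive acute-phase proteins 12 were called lower and 1 higher, with a median of -0.55; without 1 array 5 to 15 were lower, and with no stimulus block 3 were. They included Apcs (-1.28), Serpina3n (-1.23), the fibrinogen chain Fgg (-1.22) and the serum amyloid genes Saa2 (-0.95) and Saa1 (-0.57). Of 16 negative acute-phase proteins 8 were called lower and 1 higher, with a median of -0.51; without 1 array 2 to 8 were lower, and with no stimulus block 0 were. Genes that inflammation raises and genes that it lowers were thus both among those that fell. Apolipoproteins and plasma carriers gave 11 lower and 1 higher of 22 (4 to 10 lower without 1 array, 1 with no stimulus block), led by Lcat (-1.49) and Apoc4 (-1.38). Alb, albumin, stood at 14.67 and 14.72 at 24 h, against 14.80 and 14.85 at 12 h, near the top of the array scale, and did not pass (-0.13). Afp, the fetal counterpart of albumin, rose by 0.60.

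The labelled cell type was checked against 12 hepatocyte markers, of which 8 were called lower and 0 higher; without 1 array 5 to 8 were lower, and with no stimulus block 1 was. Cps1, Ass1, Tat, Cyp2e1 and Apoa1, which were called lower, are also members of lists above, so this check is not separate from those lists. Alb, Ttr, Apob and the transcription factor Hnf4a did not pass and differed by -0.13, -0.33, 0.55 and 0.38. The mean log2 level of the 12 was 9.35 with IL-6 plus HGF and 9.84 in control at 24 h, against 10.28 and 10.74 at 12 h. Asgr1 and Asgr2, subunits of the asialoglycoprotein receptor of hepatocytes, fell by 2.53 and 1.53. In RNA of whole dishes, fewer cells of a type and less RNA per cell cannot be told apart. Of 28 liver transcription factors 5 were called higher and 1 lower, with a median of 0.13. With arrays centred on their medians 4 were higher and 4 lower, with quantile normalization 4 and 3, without 1 array 1 to 3 and 0 to 3, and with no stimulus block 0 and 0. Those higher were Onecut2 (0.92), Esr1 (0.85), Foxa2 (0.66), Prox1 (0.59) and Foxa1 (0.47), and the one lower was Nr1h3, LXR-alpha (-0.50). Among bile acid enzymes and transporters 4 of 28 were called lower and 5 higher. With arrays centred on their medians 7 were lower and 5 higher. Over the 4 arrays at 12 and 24 h alone 7 were lower and 3 higher, and with no stimulus block 2 and 0. Uptake carriers of the basolateral membrane fell (Slc10a1 by 0.86, Slco1a1 by 0.99), and so did the bile salt pump Abcb11, by 0.49. The canalicular pumps Abcc2 and Abcg2 rose by 0.70 and 0.42, and Abcc4, a basolateral exporter that is low in normal liver, rose by 1.81. Abcc4 measured 9.06 at 24 h against 7.32 at 12 h with IL-6 plus HGF, and 9.69 at 24 h against 7.82 at 12 h in control.

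The circadian clock of the liver runs on Arntl and Clock, which drive the Per, Cry and Nr1d1 genes, whose products then repress them. Part of these genes turned round between 12 h and 24 h. Of 6 clock activators and genes of their loop, 3 were called higher and 0 lower, with a median of 0.61, and all 6 were positive in both pairs. Of 12 repressors and output genes, 3 were called lower and 0 higher, with a median of -0.48, and 10 were negative in both pairs. Over all 18193 genes 5118 were positive and 7916 negative in both pairs. With no stimulus block 1 member of the activator list was called higher and 1 of the repressor list lower. Arntl, the BMAL1 partner of Clock, was 8.73, 8.73, 7.76, 6.86 and 8.15 in control at 0, 4, 8, 12 and 24 h, and 7.88, 7.57, 7.43, 6.94 and 7.76 at 8, 9, 10, 12 and 24 h with the 2 factors. It was lowest at 12 h in both stimuli and rose by 1.06 ± 0.14 to 24 h (limma adjusted p = 0.00761). Its other probe set differed by -0.15. Nr1d1, which encodes the Arntl repressor REV-ERB-alpha, ran opposite. At 24 h Nr1d1 stood at 6.32 with IL-6 plus HGF and 6.11 in control, against 7.40 and 7.15 at 12 h. It fell by 1.06 ± 0.09 (adjusted p = 0.00152). The activator Rora, which competes with Nr1d1 for its sites, rose by 0.70, and Cry1 by 0.63. Cry1 encodes a repressor but was counted in the activator list as a gene of the Arntl loop, so 2 of the 3 called there are activators. Tef, an output factor, fell by 0.59 with IL-6 plus HGF and 1.06 in control.

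Several clock genes had differences of the same sign that did not pass. Dbp, an output factor driven by E-boxes, was at 5.28 and 4.85 at 24 h, against 5.97 and 6.77 at 12 h (late difference -1.30, adjusted p = 0.0833). Per2 differed by -0.54 and Per3 by -0.59. In control the mean of the repressors and outputs was 0.66 above its 0 h level at 12 h and stood at -0.02 at 24 h, and that of the activators was -1.08 at 12 h and -0.33 at 24 h. With IL-6 plus HGF the activators stood at -0.60 and the repressors at 0.15 at 24 h, against -1.06 and 0.51 at 12 h. The arrays give 1 late time, so no period can be read from them. With 1 array left out, 0 to 3 activators and 1 to 5 repressors were called in these directions.

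**Figure D4:**
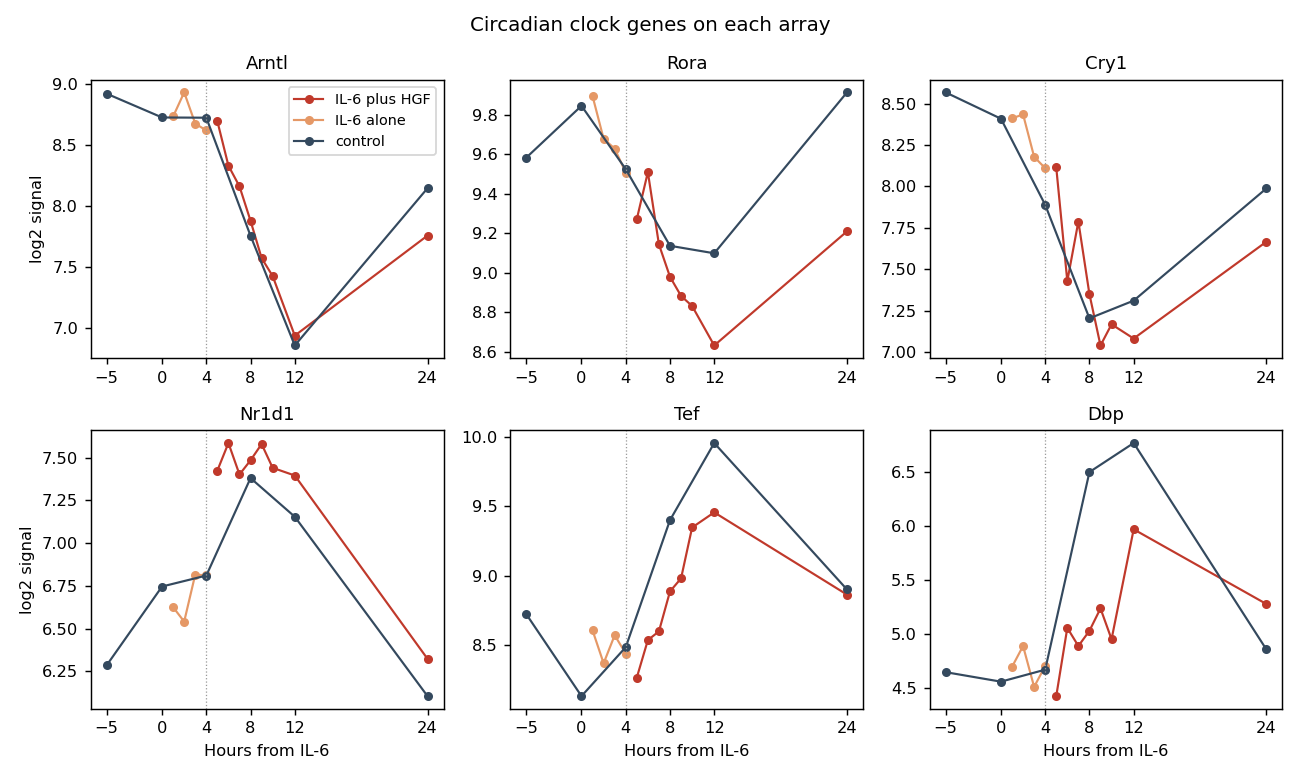
The log2 signal of 6 clock genes is plotted against hours from IL-6, 1 point per array, for IL-6 plus HGF, IL-6 alone and control. Arntl has its lowest points at 12 h (6.94 with IL-6 plus HGF and 6.86 in control), while Tef and Dbp have their highest points of the control series there (9.96 and 6.77).

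Promoters of the clock genes held the elements known for this loop in part. The E-box CACGTG, bound by Clock and Arntl, stood in 5 of 12 promoters of the repressor and output list (41.7%) and in 7.15% of all promoters. The E-box share in the other lists ran from 0% (interferon response, among others) to 36.4% (autophagy and lysosome), so a high share was not particular to the clock genes. The RORE core AGGTCA with any 2 bases before it stood in 3 of 9 activator promoters (33.3%) and in 16.2% of all. Its share in the other lists ran from 0% (integrins and matrix) to 45.5% (complement and coagulation), so it was not particular to the clock genes. The Tef stretch from 150 to 31 bases before the start is shown for its E-box (chr15:81802523-81802642, plus strand), and 30 bases of 1 Arntl promoter for the RORE core (chr7:113207530-113207559, plus strand), each in capitals.
Tef: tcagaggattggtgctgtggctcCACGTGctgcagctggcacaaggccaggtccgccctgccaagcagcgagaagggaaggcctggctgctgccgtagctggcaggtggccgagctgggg
Arntl: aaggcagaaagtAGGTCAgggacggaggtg

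Genes of cytoskeleton, matrix and cell shape rose in part. Of 31 genes of cytoskeleton and dedifferentiation 8 were called higher and 0 lower, with a median of 0.12. Without 1 array 4 to 9 were higher, and with no stimulus block 3 were. Krt19, a keratin of bile duct cells that cultured hepatocytes also gain, led them. The signal of Krt19 was 9.14 with IL-6 plus HGF and 9.38 in control at 24 h, against 7.53 with IL-6 plus HGF and 7.55 in control at 12 h. It rose by 1.72 ± 0.10 (limma adjusted p = 0.000491). Vim, the mesenchymal intermediate filament, rose by 0.67, the annexin Anxa1 by 0.93 and the galectin Lgals1 by 0.83, while Actb and the hepatocyte keratins Krt8 and Krt18 differed by 0.05, -0.10 and -0.11. Of 23 integrin and matrix genes 6 were called higher (1 to 5 without 1 array, 0 with no stimulus block), among them Lamb3, a laminin chain, by 2.19 with IL-6 plus HGF and 1.47 in control, and fibronectin, Fn1, by 0.92. Of 17 protease and inhibitor genes 3 were called higher (1 to 4 without 1 array, 0 with no stimulus block), namely Mmp12 (1.30), the plasminogen activator Plat (1.13) and the hyaluronan receptor Cd44 (0.99). Axl and Thbs1, both YAP targets, rose by 1.56 and 1.43, while Ccn1 and Srf of the same list fell by 0.58 and 0.67. Other probe sets of Axl (-0.04), Anxa1 (-0.10) and Acta2 (-0.12 and -0.07) did not share the rise. For Cd44 2 of the 3 other probe sets shared it, and the lowest differed by -0.15. In glycolysis the hexokinases Hk2 and Hk1 rose by 1.11 and 0.68 and the pyruvate kinase Pkm by 0.88, isoforms that are low in adult hepatocytes.

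Markers of other liver cell types were read beside these groups. Cholangiocyte and progenitor markers gave 5 higher of 15 (Krt19, Cd24a 1.49, Pkhd1 1.19, Prom1 0.86 and Aqp1 0.56), and their mean level was 6.48 with IL-6 plus HGF and 6.39 in control at 24 h, against 6.14 and 6.09 at 12 h. Epcam, Sox9 and Krt7, defining markers of that list, differed by -0.04, -0.03 and -0.40. Stellate cell and fibroblast markers gave 4 higher of 21 (Col3a1 0.88, Acta2 0.86, Lox 0.73, Ecm1 0.61) and 2 lower (Rgs5 -0.74, Reln -0.49), and their mean was 5.98 and 6.01 at 24 h, against 5.95 and 5.91 at 12 h. The other probe set of Col3a1 differed by 0.10. Endothelial markers gave 0 higher and 0 lower of 22 in limma (2 with an unadjusted p under 0.05), with a mean of 6.39 and 6.78 at 24 h, against 6.47 and 6.64 at 12 h. Of 25 Kupffer cell markers 0 were higher and 2 lower, the scavenger receptor Marco (-0.99) and the lysosomal Cd68 (-1.25), and their mean was 6.89 and 6.98 at 24 h, against 6.91 and 7.17 at 12 h. Lymphocyte and neutrophil markers gave 0 higher and 1 lower of 15, with a mean of 4.84 and 4.78 at 24 h, against 5.10 and 4.94 at 12 h. On this log2 scale no marker is at 0, and the part of these cells in the results was not tested.

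Calls among acute signalling genes are read against the 5.97% called higher and 2.88% called lower over all genes, and their counts higher were near that share. Immediate early genes and ERK feedback genes gave 5 lower and 3 higher of 35, and 0 to 4 of either without 1 array. Egr1, a zinc finger factor induced by ERK, fell by 1.12, Atf3 by 0.65, while Dusp4, a phosphatase that shuts ERK off, rose by 1.44 with IL-6 plus HGF and 0.69 in control. Of 29 chemokine and NF-kB feedback genes 5 were called lower, including Cxcl9 (-1.37), Cxcl2 (-0.74), Relb (-0.58) and Nfkb2 (-0.56), and 2 higher. Among genes of protein folding stress and amino acid shortage 3 fell, namely Atf5 (-0.92), Asns (-0.81) and Trib3 (-0.51), and 0 of the 32 rose. Of 24 genes of the IL-6 receptors, STAT3 and its targets, 2 were called higher and 1 lower. Socs3, the feedback inhibitor that IL-6 induces, stood at 9.45 with IL-6 plus HGF and 7.23 in control at 24 h, against 9.80 and 7.28 at 12 h, and did not pass (-0.20). The treated dishes thus stayed well above the controls at both times. Cebpd, a factor of acute-phase genes, did likewise, at 10.40 and 8.57 at 24 h, against 10.37 and 8.40 at 12 h.

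Housekeeping lists had few calls. Limma called 0 of 29 respiratory chain subunits, 0 of 28 proteasome subunits and 0 of 22 cytosolic ribosomal proteins in either direction, and 0, 1 and 1 of them had an unadjusted p under 0.05. Their medians were -0.01, -0.08 and 0.02, and the extremes were -0.25 (Psmb5) and 0.29 (Rpl14). Of 36 Myc and ribosome biogenesis genes 0 were higher and 1 lower, with a median of -0.13, and Myc itself differed by -0.15. The 6 nuclear long RNAs read as a sign of RNA quality gave 0 calls in limma (1 with an unadjusted p under 0.05) and a median of 0.00, though Neat1 differed by -0.34 with IL-6 plus HGF and -1.95 in control.

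Counts in the remaining signalling lists are read against the 5.97% called higher and 2.88% called lower over all genes. Of 19 genes of the glucocorticoid receptor and its targets, read because dexamethasone had been withdrawn, 1 was called higher and 3 lower, with a median of -0.02. Of 27 genes of the HGF, EGF and activin pathways 2 were called higher and 0 lower, and Met, the HGF receptor, differed by 0.43 without passing. Of 19 genes of the IGF axis and growth hormone receptor 3 were called higher and 1 lower, among them the binding proteins Igfbp3 (0.76) and Igfbp2 (-1.05) and the insulin receptor Insr (0.69), whose 2 other probe sets differed by -0.15 and -0.12. Interferon-response genes gave 1 higher and 3 lower of 27, Nrf2 and glutathione defence genes 4 higher and 1 lower of 27, and autophagy and lysosome genes 0 higher and 1 lower of 24.

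Among the largest rises outside the lists were genes of other tissues. Bex1, known from neurons, stood at 5.68 and 7.58 at 24 h, against 3.94 and 4.07 at 12 h, with the larger rise in control. Tnnt2, cardiac troponin T, rose by 3.55 with IL-6 plus HGF and 1.37 in control, and 1 of its 2 other probe sets shared the direction. Fgf13, an intracellular member of the FGF family, rose by 2.34 and the kinase gene Nrk by 2.43. Esco2, which acetylates cohesin in S phase, rose by 2.40. Depdc1a measured 7.60 at 24 h against 3.61 at 12 h with IL-6 plus HGF, and 7.08 at 24 h against 4.32 at 12 h in control. Both 12 h dishes were near the low end of the array scale for Depdc1a, whose protein is needed in mitosis, and for Bex1, so the sizes of these rises are not exact. Among the largest falls outside the lists were Hsd17b13, a lipid droplet enzyme (-2.16 with IL-6 plus HGF and -1.84 in control), Rdh16f2 (-2.07) and Cyp2a12 (-2.33). Cyp2a12 belongs to P450 family 2 but was not a member of the P450 list.

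Much of the late change in control continued a movement that was already visible. With IL-6 plus HGF a later and shorter window was read, from 5 to 7 h to 8 to 10 h. In that window the genes called lower continued an earlier fall, while those called higher rose about as often as all genes. The windows are unlike, so they do not compare the stimuli. In control 77.8% of the genes called higher were above their 0 h level at 8 h (51.4% of all genes), and 75.4% of those called lower were below it (48.6% of all genes). With IL-6 plus HGF 75.2% of the genes called lower were lower at 8 to 10 h than at 5 to 7 h (50.3% of all genes), whereas 51.7% of the genes called higher were higher (49.7% of all genes). These arrays at 0 h and at 5 to 7 h were not used to call the late change, while the control at 8 h was in the fit.

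The last comparison asked whether the late change differed between the stimuli. It set the difference between 24 h and the mean of 8 to 12 h with IL-6 plus HGF against the same difference in control, over 8 arrays. The 24 h arrays were single and were assumed to vary like the others. Limma called 3 genes higher, or 0.0165% of those tested, and 1 lower, or 0.0055%, and 706 genes had an unadjusted p under 0.05. With 1 array left out it called 0 to 2 higher and 0 to 1 lower, and 0 of either over the 6 arrays of 8, 12 and 24 h alone. With no true difference in any gene, about 910 genes would have an unadjusted p under 0.05 by chance, more than were found. The 4 genes are therefore given by their values over the hours.

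Pck1 encodes PEPCK, the committed enzyme of gluconeogenesis, and passed with a limma adjusted p of 0.0467. In control it was 6.93, 3.88, 4.68, 6.50, 7.17 and 3.89 at -5, 0, 4, 8, 12 and 24 h. With IL-6 plus HGF it lay between 3.48 and 3.60 from 8 to 12 h and was 3.57 at 24 h. The treated dishes and the control at 24 h were near the low end of the array scale, so the fitted contrast of 2.96 ± 0.32 is not an exact size. Tdo2, which opens the tryptophan ring, went the other way round, with a contrast of 1.77 ± 0.17 (adjusted p = 0.0392). With IL-6 plus HGF it lay between 7.00 and 7.21 from 8 to 12 h and reached 9.04 at 24 h, against 9.60 in control at 24 h and 9.47 at 12 h. The gap to control therefore narrowed from the treated side. Hamp encodes hepcidin, the iron hormone that IL-6 induces. With IL-6 plus HGF it was 8.45 at 24 h, against 7.58 to 7.94 from 8 to 12 h, and in control it was 9.21 at 24 h, against 6.35 at 12 h. Its contrast was -2.32 ± 0.23 (adjusted p = 0.0392), and the control passed the treated dish by 24 h. Asb5, a subunit of ubiquitin ligases, was near the bottom of the scale on all arrays before 24 h and reached 5.83 with IL-6 plus HGF at 24 h, against 3.65 in control, a fitted contrast of 1.99 ± 0.19 (limma adjusted p = 0.0392) with the same limit.

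**Figure D5:**
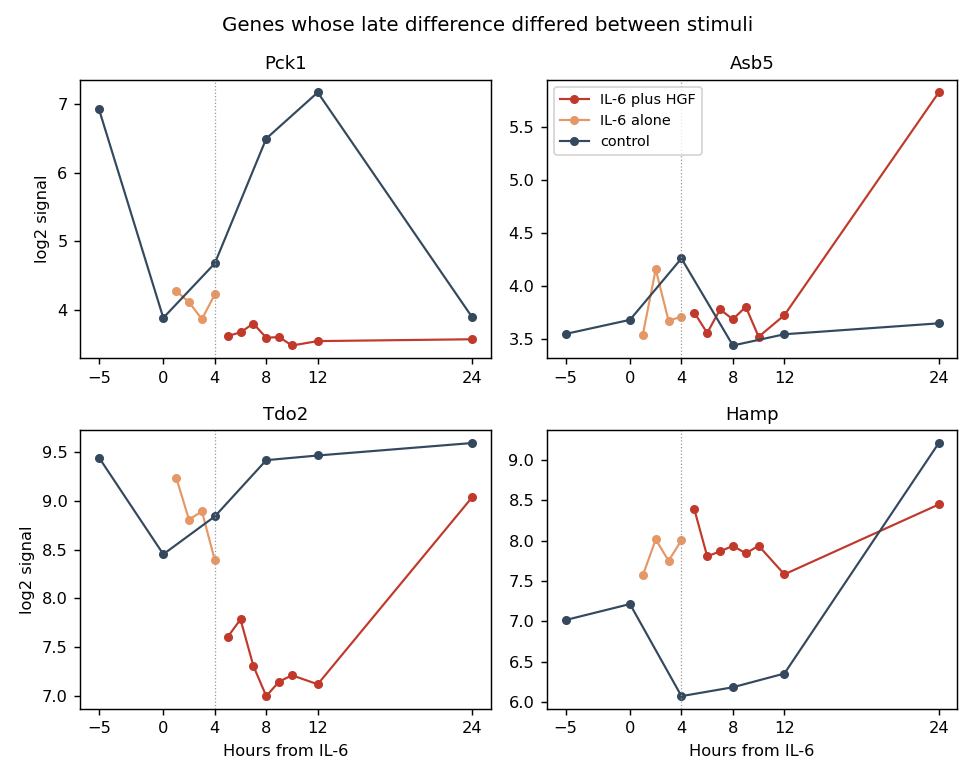
The log2 signal of the 4 genes past the threshold for a difference between stimuli is plotted against hours from IL-6, 1 point per array. Pck1 and Hamp move in control after 12 h (3.89 and 9.21 at 24 h), and Tdo2 and Asb5 with IL-6 plus HGF (9.04 and 5.83).

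Other genes had wide contrasts between the stimuli that did not pass. Arg1, arginase of the urea cycle, stood at 5.72 and 6.36 at 24 h, against 5.85 and 9.35 at 12 h, a contrast of 2.63 (limma adjusted p = 0.515). Gsta2, a glutathione transferase, differed by -2.35 with IL-6 plus HGF and -0.20 in control (contrast -2.30, adjusted p = 0.0525). Gjb1, the main gap junction protein of hepatocytes, differed by -2.63 and -0.99 (adjusted p = 0.948), and the matrix gene Fbln2 by 2.61 and 0.89 (adjusted p = 0.346). Timp1, an inhibitor of metalloproteinases, was at 11.82 and 8.92 at 24 h, against 10.48 and 8.29 at 12 h, and its late difference of 0.98 did not pass (adjusted p = 0.0582). Genes whose pairs went opposite ways included Acnat2 (0.46 with IL-6 plus HGF and -2.42 in control) and the sulfotransferase Sult1e1 (0.91 and -0.62). In the other sense were Crim1 (-0.15 and 2.41), for which the control at 12 h was the array apart, and Cd36, a fatty acid transporter (-0.42 and 0.72).

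The 24 h arrays stood slightly apart from the rest. Their mean correlation with the other arrays was 0.981 with IL-6 plus HGF and 0.983 in control, against 0.992 for each 12 h array. The SD of gene values was 2.581 and 2.602 on them, against 2.528 to 2.578 on the other 16. As each late time is 1 array, a dish or array effect common to both 24 h arrays and the hour cannot be told apart. For genes with several probe sets, 73.2% of the other probe sets of genes called higher and 83.1% of those of genes called lower shared the direction.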

How the data were processed

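RNA of 18 dishes was labelled with the One-Cycle kit and hybridised to one-colour Affymetrix arrays, per the labels' protocols. The authors deposited log2 expression signals per probe set, which ran from 2.09 to 15.05 with array medians of 5.47 to 5.57; how signals were summarized and normalized is not given in the sources used here, nor is the software. Of 45101 probe sets, 34958 had 1 gene symbol in the platform annotation, 932 had several and 9211 had none. Each gene was read from 1 probe set, that of highest mean signal on the 18 arrays, which left 18193 genes, 9010 of them with several probe sets. No file gives depth or counts, so the number of arrays limits the precision.

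Limma 3.58.1 (R 4.3.3) fitted the late difference over the 6 arrays at 8, 12 and 24 h, with stimulus as a block and hour as a factor; 2 residual degrees of freedom were joined by 4.66 prior ones. The difference between stimuli used 8 arrays, with 4 residual and 4.36 prior degrees of freedom. P-values were adjusted by Benjamini-Hochberg over all genes, with a threshold of 0.05. The fits were tested on simulated data. Replicate numbers only name arrays, so arrays were paired by stimulus. Tables and figures were made with python 3.11.15, pandas 2.3.3, numpy 2.4.6 and matplotlib 3.10.9.

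The members, the 48 gene lists and the tests were chosen with earlier results of these data known. The genes named by rule were the 12 largest late differences in each direction past the threshold, the 8 largest differences between stimuli in each direction, up to 4 called members of each list (2 where none was called), 25 fixed genes, and the 4 genes in each direction whose pairs were most opposed; clone names were left out. Alternatives were quantile normalization, median centring, a filter on dim genes, an intensity trend (robust variances), probe sets averaged by gene, other sets of arrays, no stimulus block, a minimum size and leaving out each array. Promoters came from RefSeq (GRCm38.p6).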

Additional observations from a re-analysis of the deposited data

Results flagged for a closer look

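In 17 of the 199 genes named by rule, 1 of the 4 treated arrays (IL-6 plus HGF) from 8 to 12 h lay far from the other 3 by Dixon's test; chance marks about 1 in 20 such groups. In 10 genes it was the 12 h array, the earlier array of the treated pair. These were Akr1b8 at 8.88, Col3a1 at 6.73, Fgg at 13.35, Gckr at 8.45, Hsd17b13 at 10.11, Ifit2 at 6.89, Lpin1 at 7.73, Masp1 at 7.13, Mmp12 at 5.01 and P2ry12 at 5.08 (log2). In the other 7 it was the 10 h array, namely Akr1c14 at 5.54, Crim1 at 7.54, Fn1 at 12.53, Fst at 9.66, Psmb5 at 11.59, Saa2 at 12.41 and Tnc at 6.02. The 10 h array enters the difference between stimuli and not the late difference itself.

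In 4 genes limma's test of the difference in late change between IL-6 plus HGF and control passed its threshold, with each late arm a single array. None (0) passed over the 6 arrays at 8, 12 and 24 h, with the dim filter or with the mean of probe sets, and 0 to 2 higher and 0 to 1 lower passed without 1 array; 706 genes had an unadjusted p under 0.05 in the 8-array fit. About 910 genes would have such an unadjusted p by chance alone. The differences of the 4 genes were 2.96 for Pck1, 1.99 for Asb5, 1.77 for Tdo2 and -2.32 for Hamp (log2, IL-6 plus HGF minus control). Those of Pck1 and Asb5 were taken against signals near the low end of the scale.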

How the results depend on the processing

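Counts of late calls stayed within 1.5 times under quantile normalization (954 higher, 595 lower), a filter on dim genes (1228, 722), the mean of all probe sets (869, 478) and the 4 arrays at 12 and 24 h alone (904, 380). Genes lower numbered 828 with arrays centred on their medians, 816 with an intensity trend and robust variance and 1060 against the mean of 8 to 12 h; a minimum size of 1 left 245 higher and 108 lower. With no stimulus block, the alternative to the pairing by stimulus, 209 genes were higher and 41 lower, and 24 of 76 named genes higher and 16 of 77 lower still passed. Without 1 array the counts ran from 364 to 904 higher and from 120 to 380 lower. They were 364 and 120 without control at 12 h, 529 and 194 without IL-6 plus HGF at 24 h, 592 and 306 without IL-6 plus HGF at 12 h, and 656 and 234 without control at 24 h. Such fits hold fewer samples, and a lone late array was assumed to vary like the other arrays. Masp1 turned direction with the mean of all its probe sets (0.129); the other called genes named by rule kept theirs under the alternatives run. For the difference between stimuli, 3 genes were higher and 1 lower. The dim filter, the mean of probe sets and the 6 arrays at 8, 12 and 24 h each left 0 and 0. Lower calls were 2 after quantile normalization, 3 with centring and 2 with the trend, and leaving out 1 array gave 0 to 2 higher and 0 to 1 lower. The cause of these shifts was not tested. No paired analysis was possible by replicate number because the numbers only name arrays.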
